A study of Mus musculus with 47 samples.

Results

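Potassium channel genes encode the pore-forming and accessory subunits of channels that let potassium ions across cell membranes. In nerve, muscle and endocrine cells these channels set the resting potential and end action potentials, and most of their genes are known for expression outside the hepatocyte. H3K27me3, the trimethylated form of lysine 27 on histone H3, which Polycomb repressive complex-2 places through Ezh1 or Ezh2, marks silenced developmental and tissue-restricted genes. Acetylation of the same lysine (H3K27ac) marks active enhancers and promoters, and monomethylation of lysine 4 (H3K4me1) marks enhancers, whether active or poised. Because acetylation and trimethylation occupy the same lysine, a histone tail can carry only one of the pair, although different cells of a liver can differ.

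The genes described here are the 92 autosomal protein-coding genes of the mm9 annotation whose symbol begins with Kcn, out of 21281 autosomal protein-coding genes. Membership was set by symbol alone, although the family was chosen with earlier results of these data known. The X-linked Kcnd1 and Kcne1l were left out. By symbol, 39 encode voltage-gated pore subunits (Kcna to Kcnd, Kcnf to Kcnh, Kcnq, Kcns and Kcnv). Inward rectifiers (Kcnj) number 15, and 14 genes encode channels with a pair of pore domains in each subunit (Kcnk). A group of 8 holds the channels opened by calcium or sodium (Kcnma1, Kcnn and Kcnt) together with the pH-sensitive Kcnu1. The other 16 encode accessory subunits or regulators (Kcnab, Kcne, Kcnip, Kcnmb and Kcnrg). ChIP-seq was performed on livers of male and female mice at 7 weeks of age. Control mice carried floxed Ezh2 alleles without Cre. E1/E2-KO mice lacked Ezh1 in every cell and carried the same floxed Ezh2 alleles with Albumin-Cre, which deletes Ezh2 in hepatocytes and leaves it in the other cells of the liver. These mice are called KO below, and values given for 4 lists stand in the order control male, control female, KO male and KO female.

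The reads of the livers of a group had been pooled by the authors before calling, and 12 lists resulted, 1 for each of the 3 marks and 4 groups. The records hold 47 samples, with 4 behind each list apart from the H3K4me1 list of KO females, which has 3. The methods describe 4 livers for every sex and genotype, so that list may also hold reads of a liver not among these records. The lists give positions only, with no score or read count, so the depth is unknown, values stand without errors between replicates, and differences between lists carry no test. H3K27me3 regions numbered 15603 to 19796 a list and covered 707 to 766 Mb. H3K27ac peaks numbered 29359 in control male liver and 49702 to 55930 in the other 3 lists, whereas H3K4me1 peaks ranged from 51417 to 69797. The lists hold no measure of Ezh1 or Ezh2, so the knockout itself could not be checked with them. Among 7 hepatocyte marker genes, none was at least 50% covered by H3K27me3 regions in either control list, but 4 (Apoa1, Hnf4a, Fgb and Tat) were so covered in both KO lists. Among 4 endothelial markers the count was 4 in both control lists and 1 (Kdr) in both KO lists, and 4 of 5 neuronal markers were covered in every list. What these shifts contribute to the values below was not tested.

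The 200 bases in front of the annotated 5′ end are shown for 5 genes that span the states met in the lists, because H3K27me3 in mammals often lies at CG-rich promoters. They were read from NCBIM37, the genome assembly of mm9, on the strand of the gene, and they are identical to the corresponding stretch of the RefSeq promoter table (GRCm38.p6). CG dinucleotides, searched as the letters CG, which read the same on both strands, are in capitals. Kcna3 (chr3:106838880-106839079, plus strand), a T-lymphocyte and neuronal channel, was fully covered in all 4 H3K27me3 lists and has 26 CG in this stretch. Kcnj15 (chr16:95478965-95479164, plus strand), a renal inward rectifier, was also fully covered in all 4, with 1 CG. Kcnj2 (chr11:110927278-110927477, plus strand), whose channel holds the resting potential of muscle cells, carried H3K27ac and H3K27me3 at its 5′ end in all 4 lists of each mark and has 14 CG. Kcnj16 (chr11:110829147-110829346, plus strand), the neighbour of Kcnj2 and an epithelial inward rectifier, lost its 5′ region in KO female liver and has 3 CG. Kcnk5 (chr14:21001005-21001204, minus strand), an acid-sensitive epithelial channel, carried H3K27ac at its 5′ end in all 4 lists and has 14 CG.
Kcna3: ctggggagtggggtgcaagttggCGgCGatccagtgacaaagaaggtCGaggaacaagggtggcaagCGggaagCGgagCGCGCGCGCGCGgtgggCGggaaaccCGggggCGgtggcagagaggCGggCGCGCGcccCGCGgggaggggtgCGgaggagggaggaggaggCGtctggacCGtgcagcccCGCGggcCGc
Kcnj15: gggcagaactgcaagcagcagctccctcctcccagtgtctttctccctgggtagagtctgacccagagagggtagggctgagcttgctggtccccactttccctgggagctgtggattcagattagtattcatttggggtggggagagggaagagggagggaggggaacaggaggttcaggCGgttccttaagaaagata
Kcnj2: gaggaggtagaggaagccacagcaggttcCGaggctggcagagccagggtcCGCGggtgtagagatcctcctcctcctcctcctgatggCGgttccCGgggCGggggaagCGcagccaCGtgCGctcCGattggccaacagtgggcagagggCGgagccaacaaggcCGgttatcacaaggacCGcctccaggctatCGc
Kcnj16: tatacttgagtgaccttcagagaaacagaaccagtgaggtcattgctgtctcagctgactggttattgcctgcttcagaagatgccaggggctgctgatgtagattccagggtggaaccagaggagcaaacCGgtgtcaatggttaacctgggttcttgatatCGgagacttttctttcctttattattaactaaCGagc
Kcnk5: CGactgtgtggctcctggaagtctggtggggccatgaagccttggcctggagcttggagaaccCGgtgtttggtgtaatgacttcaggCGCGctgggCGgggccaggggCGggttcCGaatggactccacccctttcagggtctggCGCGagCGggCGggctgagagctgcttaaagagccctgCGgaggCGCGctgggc
At least 1 CG was present in this stretch of 95.7% of the 92 genes and of 90.5% of all 21281 autosomal genes, and as many as the 26 of Kcna3 in 6.41% of all genes. In the wider window of 500 bases on either side of the 5′ end, 39 of the 92 genes (42.4%, Wilson 95% interval 32.8 to 52.6%) were CG-rich, meaning a ratio of observed to expected CG of at least 0.6 and a G and C content of at least 55%. The share among all genes was 39.4%, inside that interval. The 5′ end lay inside an H3K27me3 region in all 4 lists for 34 of the 39 CG-rich genes (87.2%) and for 41 of the other 53 (77.4%). Among all genes the corresponding shares were 23.1% and 27.1%. Both kinds of 5′ end were thus occupied in most members. These letter counts describe the sequence and show no binding.

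H3K27me3 regions lay over the 5′ ends of most potassium channel genes in all 4 groups. The annotated 5′ end was inside a region for 83 of 92 genes (90.2%) in control male liver, where 36.1% of all autosomal genes were, and for 79 (85.9%) in control female liver, where 33.8% were. In KO male liver 82 genes (89.1%) had their 5′ end inside a region, against 40.7% of all genes, and in KO female liver 79 (85.9%), against 32.7%. In all 4 lists together the count was 75 of 92 (81.5%, Wilson 95% interval 72.4 to 88.1%), compared with 25.5% of all genes. These intervals cover counting error only, and they are too narrow where neighbouring genes share a region, as the Kcna1, Kcna5 and Kcna6 cluster, the Kcna2 and Kcna3 pair, the Kcnj9 and Kcnj10 pair and Kcnmb1 inside Kcnip1 did in 1 or more lists. A liver sample mixes hepatocytes with other cells, and a region called over a gene does not tell in which of them the mark lies.

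**Figure D1:**
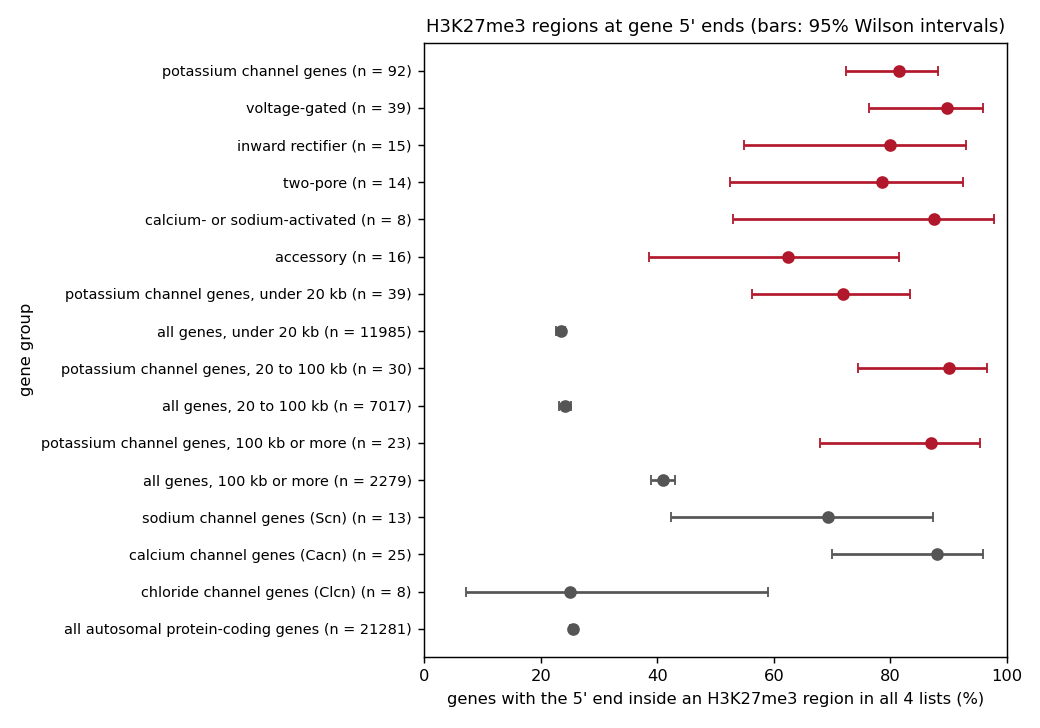
Percentage of genes whose annotated 5′ end lay inside an H3K27me3 region in all 4 lists (horizontal axis), for potassium channel genes and their groups (red) and for other gene groups (grey), with 95% Wilson intervals as bars. Every potassium channel group lies between 62.5% and 90.0%, and all autosomal genes lie at 25.5%.

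The voltage-gated subunits had the largest share, 35 of 39 (89.7%, 76.4 to 95.9%), and the accessory subunits the lowest, 10 of 16 (62.5%, 38.6 to 81.5%), and these intervals overlap. Inward rectifiers stood at 12 of 15 (80%) and Kcnk channels at 11 of 14 (78.6%). The group of calcium- or sodium-activated channels and Kcnu1 stood at 7 of 8 (87.5%). Every gene of the Kcnd, Kcng, Kcnip, Kcnn and Kcns families was among them, whereas only 1 of 3 Kcnab genes and 2 of 4 Kcnmb genes were. The other 17 genes had their 5′ end outside a region in 1 or more lists. It was outside in both KO lists alone for Kcnk6 and Kcnv2, in the KO female list alone for Kcnj8 and Kcnj16, in the control female list alone for Kcna4, Kcnab3 and Kcnmb1, and in the control female and KO male lists for Kcnb2. For Kcnk5 and Kcnmb3 it was inside only in the KO male list, and for Kcnab2, Kcne4, Kcnh8, Kcnj13, Kcnk7, Kcnrg and Kcnt2 it was outside in all 4. Other cation channels had shares of the same order, 22 of 25 calcium channel genes (Cacn, 88.0%, 70.0 to 95.8%) and 9 of 13 sodium channel genes (Scn, 69.2%, 42.4 to 87.3%), but only 2 of 8 chloride channel genes did (Clcn, 25%, 7.15 to 59.1%). The family exceeded all genes in each class of gene length. Among genes under 20 kb the shares were 71.8% for potassium channels and 23.4% for all genes, from 20 to 100 kb they were 90.0% and 24.2%, and at 100 kb or more they were 87.0% and 40.9%.

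Over the whole gene, 72 of the 92 genes (78.3%) were at least 50% covered by regions in control male liver, with 31.1% of all genes so covered, and 67 (72.8%) in control female liver, with 27.9% of all genes. The KO counts were 71 (77.2%) in males and 68 (73.9%) in females, beside 33.9% and 27.1% of all genes. In all 4 lists 62 genes (67.4%) were so covered, beside 21% of all genes, and 37 were covered over their full length in every list, beside 12.8% of all genes. The latter include Kcna1, Kcna2, Kcna3, Kcna5, Kcna6, Kcna7 and Kcna10 of the Shaker family. Among the longest of the fully covered genes were Kcnn3 (147.6 kb), which encodes a small-conductance calcium-activated channel, Kcnip3 (65.6 kb), which encodes a calcium-binding Kv4 partner also described as the repressor DREAM, and Kcnj15 (42.7 kb).

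**Figure D2:**
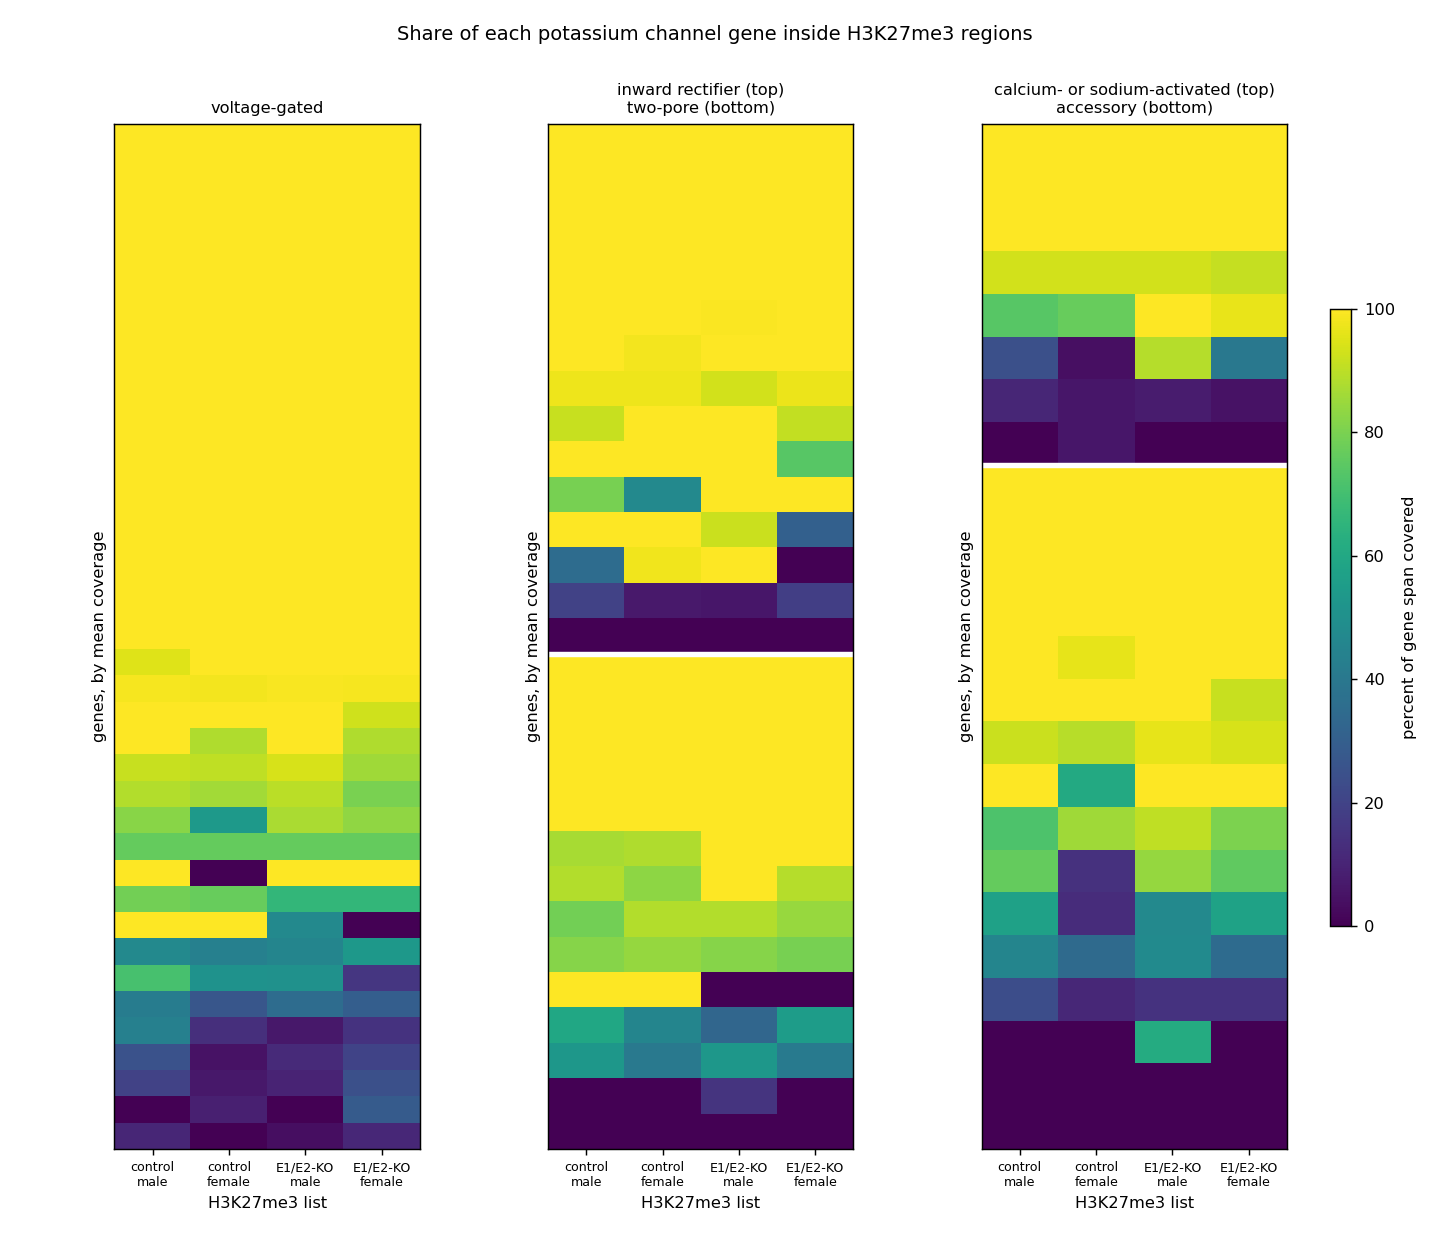
Percentage of each of the 92 genes inside H3K27me3 regions (colour, 0 to 100% of the gene span), by gene (rows, ordered within each group by mean coverage) and list (columns). Most rows are uniformly high, 62 genes being at least 50% covered in all 4 lists, and 4 rows are at 0 throughout.

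Kcnq3 (ENSMUSG00000056258.7, chr15:65826733-66117786, minus strand), a subunit of the neuronal M-current, was covered to 88.6%, 86.0%, 89.8% and 79.8% in the 4 lists. Its 5′ end was inside a region in every list. No H3K27ac peak lay within 10 kb of it in 3 of the lists, and 4 peaks did in KO male liver. Kcnma1, the large-conductance calcium-activated channel, was covered evenly across the 4 lists as well, at 93.1%, 93.2%, 93.2% and 91.3% in the same order, over a span of 504.5 kb.

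Some of the longest genes carried H3K27me3 at the start while most of their span lay outside regions. Of the 23 genes of 100 kb or more, 11 were under 50% covered in every list, and 62.3% of all genes of this length were in that state. Of those 11, 8 had their 5′ end inside a region in all 4 lists, compared with 19.4% of all genes so selected. Others of this length differed, since Kcnn3 was covered throughout and Kcnt2 and Kcnh8 had their 5′ end outside regions in every list. Kcnc2, a channel of fast-spiking neurons spanning 195.2 kb, was covered to 19.6%, 6.26%, 9.95% and 24.3% in the 4 lists. The region over its 5′ end was 31.6, 22.4, 30.8 and 31.2 kb wide in these lists. Kcnd2, the A-type channel of dendrites (514.3 kb), was covered to 42.1%, 26.6%, 35.5% and 29.9%, and its 5′ region was 29.2, 26, 26 and 34.8 kb wide. Kcnj3, which encodes the G-protein-gated subunit GIRK1 (162.2 kb), was covered to 19.7%, 6.92%, 5.93% and 18.5%, with its 5′ end inside a region in each list. In these 3 genes a 5′ region recurred in every list, while the coverage of the whole span varied.

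**Figure D3:**
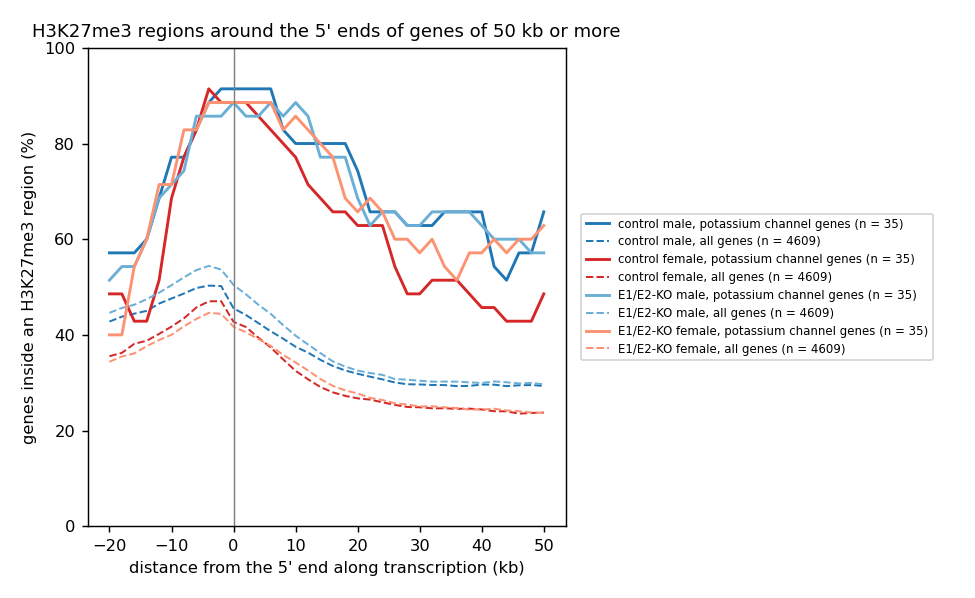
Percentage of genes inside an H3K27me3 region (vertical axis) by distance from the 5′ end along transcription in kb (horizontal axis), for the 35 potassium channel genes (solid lines) and the 4609 autosomal genes (dashed lines) of 50 kb or more, 1 colour a list. At the 5′ end 88.6% to 91.4% of the potassium channel genes are inside a region, and 50 kb downstream 48.6% to 65.7%.

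Among the 35 potassium channel genes of 50 kb or more, the 5′ end was inside a region in 91.4% (control male), 88.6% (control female), 88.6% (KO male) and 88.6% (KO female), and a point 20 kb upstream in 57.1%, 48.6%, 51.4% and 40.0%. At 20 kb downstream the shares were 74.3%, 62.9%, 68.6% and 65.7%. All genes of this length stood at 41.7% to 50.4% at the 5′ end, at 42.8%, 35.5%, 44.6% and 34.4% at 20 kb upstream and at 26.7% to 32.5% at 20 kb downstream. Of the points given here, the family stood closest to all long genes at 20 kb upstream, in every list.

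Most potassium channel genes that were covered in control liver were also covered in KO liver. Of the 72 genes at least 50% covered in control male liver, 68 (94.4%, 86.6 to 97.8%) were so covered in KO male liver, and of the 67 in control female liver 62 (92.5%, 83.7 to 96.8%) were in KO female liver. For all genes covered in control liver these shares were 84% and 79.7%. At the 5′ end, 80 of 83 genes in males (96.4%) and 75 of 79 in females (94.9%) kept a region, compared with 85.6% and 80.1% of all genes. Coverage differed by 0 percentage points in 53 genes in males and 46 in females, and by no more than 10 points in both sexes in 65 of the 92. Among all genes the shares were 63.1%, 67.2% and 66.9%, and the family's counts lie near or below these. Of the differences of 0, 45 in males and 38 in females belonged to genes at 100% in both lists and 6 in each sex to genes at 0% in both. Coverage cannot rise above 100% or show a change of signal within a called region, so these values do not show that the amount of H3K27me3 was unchanged.

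With a change of at least 25 percentage points called a fall or a rise, 4 genes fell and 4 rose in males, while 6.3% of all genes fell and 10.3% rose. In females 6 fell and 7 rose, beside 7.61% and 6.59% of all genes. These member counts, 4.35% to 7.61% of the family, lie near or below the background, so at this setting they set nothing apart about the family. With the widest 50% of the regions of each list, 10 genes fell in females and 10 rose in males. No share of all genes is given for that setting, so neither count can be read as a feature of the family. Falls in both sexes were seen in 2 genes (2.17%, beside 2.9% of all genes) and rises in both in 1 (1.09%, beside 3.48%).

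**Figure D4:**
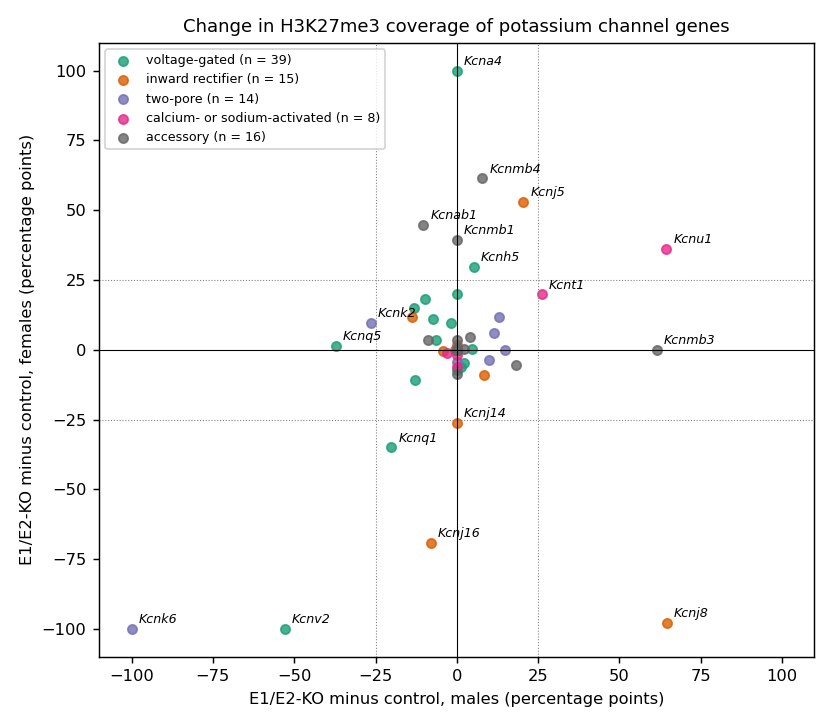
Change in H3K27me3 coverage from control to KO liver in males (horizontal axis) and females (vertical axis), in percentage points, 1 point a gene, coloured by group, with dotted lines at 25 points. Most of the 92 genes sit near the origin, Kcnk6 and Kcnv2 lie at the lower left, and Kcnj8 moves in opposite directions in the sexes.

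Kcnk6 and Kcnv2 were the 2 genes with a fall in both sexes. Kcnk6 (ENSMUSG00000046410.8, chr7:30006947-30017541, minus strand) encodes TWIK-2, a weakly inward-rectifying background channel. Regions of 16.4 and 15.2 kb covered all of it in control males and females (100% each), and none overlapped it in either KO list (0%). An H3K27ac peak lay within 1 kb of its 5′ end in control female, KO male and KO female liver but not in control male liver. Kcnv2 (ENSMUSG00000047298.3, chr19:27397078-27411669, plus strand), which encodes a silent subunit that modifies Kv2 channels in photoreceptors, was covered to 100% in both control lists, to 47.1% in KO male and to 0% in KO female liver. Its region in both control lists ran from 27364801 to 27430000 on chromosome 19, and the KO male region began downstream of the 5′ end at 27404801. H3K27ac peaks within 10 kb of Kcnv2 numbered 1, 1, 2 and 2 in the 4 lists, with none at the 5′ end.

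Falls past the limit in males alone were seen for Kcnq5 and Kcnk2. Kcnq5, an M-current subunit spanning 563.5 kb, had coverages of 43.5%, 13.4%, 6.32% and 14.8%, so that the control male list alone was high. Kcnk2, the stretch-activated channel TREK-1, was covered to 59.4%, 45.5%, 32.9% and 55.3%, and the KO male list was the lowest. The 5′ ends of both genes were inside regions in all 4 lists. Kcnq1, which encodes the pore of the cardiac slow delayed rectifier and lies in an imprinted domain, was covered to 70.7%, 51.0%, 50.6% and 15.9%. Coverage fell by 35.0 points in females, past the limit, and the difference in males was -20.1 points, short of it.

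In females alone Kcnj16, Kcnj8 and Kcnj14 also fell. All are inward rectifiers, but the inward rectifier Kcnj5 rose in females, and the median change of the 15 inward rectifiers there was 0 points. Kcnj16 (ENSMUSG00000051497.8, chr11:110829347-110889282, plus strand), which forms the kidney channel Kir5.1, was covered to 100%, 100%, 92.0% and 30.8%. A control male region of 247.6 kb had covered it together with Kcnj2. In KO male liver a region of 34.8 kb ended just inside the gene and still held its 5′ end, and another of 57.6 kb covered most of the rest, whereas in KO female liver the region began at 110870801, inside the gene, and ran on over Kcnj2. Kcnj2 itself was covered to 100% in all 4 lists. Kcnj14, a neuronal inward rectifier, was covered to 100%, 100%, 100% and 73.9%, just past the limit.

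Kcnj8 (ENSMUSG00000030247.7, chr6:142513459-142519876, minus strand) encodes Kir6.1, the pore of the ATP-sensitive channel of vascular smooth muscle and pericytes. Its coverage was 35.5% in control male, 97.8% in control female, 100% in KO male and 0% in KO female liver. The change was 64.5 points upward in males and a fall of 97.8 points in females, and the difference between the sexes was not tested. The regions that overlap it were 18.4, 31.2 and 29.2 kb wide in the first 3 lists, and there was none in the fourth. No H3K27ac peak lay within 10 kb in control liver of either sex, whereas 2 did in KO male and 1 in KO female liver, in each sex with 1 within 1 kb of the 5′ end. The peak in KO male liver lay inside an H3K27me3 region and that in KO female liver outside. Fewer endothelial markers were covered in both KO lists, as given above, although Kcnj8 was fully covered in KO males. Of 4 markers each, 3 stellate cell markers (Des, Lrat and Pdgfrb) and 4 bile duct markers were at least 50% covered in every list, and Kupffer cell markers in 3, 3, 3 and 2 cases. The part of vascular or other non-parenchymal cells in this result was not tested.

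The rises in females mostly concerned genes at which the control female list alone was low. Kcna4 (ENSMUSG00000042604.5, chr2:107130796-107138659, plus strand), the rapidly inactivating Kv1.4, was covered to 100%, 0%, 100% and 100% in the 4 lists. Kcnmb4 and Kcnmb1, the neuronal and the smooth-muscle beta subunit of Kcnma1 channels, were covered to 76.4%, 14.3%, 84.3% and 75.7%, and to 100%, 60.6%, 100% and 100%, respectively. Kcnab1, a beta subunit of Shaker channels, was covered to 57.2%, 12.8%, 47.0% and 57.5%. Kcnh5, a neuronal channel of the ether-à-go-go family, was covered to 82.3%, 53.9%, 87.4% and 83.6%. Kcnj5, the atrial G-protein-gated GIRK4, was covered to 79.5%, 46.9%, 100% and 100%, its region growing from 32.4 and 22.8 kb in control to 93.2 and 42.8 kb in KO male and female liver.

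Kcnu1 was the only gene with a rise in both sexes. It encodes Slo3, the pH-sensitive channel of sperm, and was covered to 24.4%, 3.97%, 88.7% and 40.2% in the same order, both KO values lying above both control values. Kcnt1, the sodium-activated channel Slack, was covered to 73.9%, 76.9%, 100% and 96.7%, past the limit in males with a change of 26.1 points. Kcnmb3, a beta subunit of Kcnma1 channels, was covered to 61.5% in KO male liver and 0% in the other 3 lists. Kcnab2, a Shaker beta subunit, was covered to 72.1%, 85.8%, 90.4% and 80.3%, the change in males of 18.3 points being short of the limit, and its annotated 5′ end was outside regions in every list.

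Within one genotype the sexes differed at few genes. Coverage was at least 25 points higher in control male than in control female liver for 7 genes (7.61%, with 6.68% of all genes) and higher in control female liver for 1 (1.09%, with 2.38%), which was Kcnj8. In KO liver it was higher in males for 7 genes (7.61%, with 11.5% of all genes) and higher in females for 1 (1.09%, with 2.02%). The 5 largest control differences were those of Kcna4, Kcnj8, Kcnmb4, Kcnab1 and Kcnmb1, whose values are given above.

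Only 4 of the 92 genes (4.35%) overlapped no H3K27me3 region in any list, compared with 43.2% of all genes. They were Kcne4, an inhibitory partner of Kcnq1, Kcnj13, the channel Kir7.1 of the retinal pigment epithelium, Kcnk7, which encodes a subunit without known current, and Kcnrg, whose product hinders assembly of Kv1 channels. All are short, at 3.1, 8.4, 2.7 and 4.4 kb. Kcne4 and Kcnj13 also had no H3K27ac and no H3K4me1 peak within 10 kb in any list. Kcnrg had 2, 3, 2 and 2 H3K27ac peaks within 10 kb, none of them within 1 kb of its 5′ end. Kcnk7 had 1 such peak in KO males and none in the other lists. Genes without H3K27me3 regions thus included genes without either other mark.

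H3K27ac lay near fewer potassium channel genes than near other genes. A peak within 10 kb of the gene was present for 33 genes in control male liver (35.9%, 26.8 to 46.1%), 39 in control female (42.4%, 32.8 to 52.6%), 47 in KO male (51.1%, 41.0 to 61.1%) and 46 in KO female liver (50%, 40.0 to 60.0%). For all genes the shares were 61.6%, 68.2%, 70.2% and 69.5% in the same order. No list had a peak within 10 kb of 35 genes (38.0%), with 27% of all genes in that state. When equal numbers of the widest peaks were taken from each list, 33, 31, 34 and 36 genes had one, with 61.6%, 63.2%, 64.1% and 64.2% of all genes. The difference between control and KO was then 1 gene in males and 5 in females, beside 14 and 7 with all peaks. The voltage-gated group had 11, 14, 17 and 16 of 39 genes with a peak and the accessory group 7, 9, 10 and 10 of 16.

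**Figure D5:**
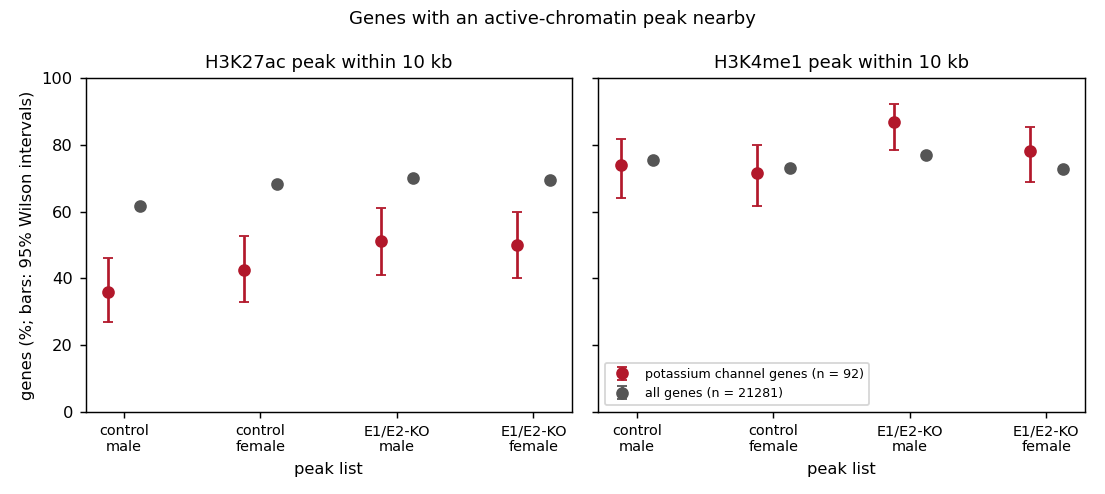
Percentage of genes with an H3K27ac peak (left) or an H3K4me1 peak (right) within 10 kb (vertical axis) in each list (horizontal axis), for the 92 potassium channel genes (red) and all 21281 autosomal genes (grey), with 95% Wilson intervals as bars. For H3K27ac the potassium channel genes lie between 35.9% and 51.1%, below all genes in every list, whereas for H3K4me1 they lie between 71.7% and 87.0%.

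The deficit was larger at the 5′ end. A peak within 1 kb of it was present in all 4 lists for 6 genes (6.52%, 3.02 to 13.5%), compared with 45% of all genes. Even where the 5′ end lay inside an H3K27me3 region of the same group, an H3K27ac peak was called within 1 kb at few members, at 3 of 83 (3.61%), 10 of 79 (12.7%), 10 of 82 (12.2%) and 9 of 79 (11.4%) in the 4 lists. The shares for all genes with a 5′ end inside a region were 22%, 32.4%, 43.9% and 36.4%.

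The genes with H3K27ac at the 5′ end throughout differed in H3K27me3. Kcnk5, Kcnt2 and Kcnmb3 had their 5′ ends outside H3K27me3 regions in at least 3 lists. Kcnk5 (ENSMUSG00000023243.8, chr14:20959280-21001004, minus strand), which encodes the pH-sensitive TASK-2, had 3, 9, 10 and 8 H3K27ac peaks within 10 kb in the 4 lists. Its 5′ peak was 1074, 1205, 1147 and 1138 bp wide, and an H3K27me3 region of 18.8 kb covered 14.9% of the gene, its 5′ end included, in KO male liver only. Kcnt2 (ENSMUSG00000052726.9, chr1:142142793-142508640, plus strand), the sodium-activated channel Slick, had 7, 13, 8 and 9 peaks within 10 kb and H3K27me3 coverage of 0%, 6.01%, 0% and 0%. Kcnmb3 had 1, 2, 2 and 2 peaks.

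In Kcnn1 and Kcnj2 both marks were called at the 5′ end in every list. Kcnn1 (chr8:73365948-73380907, minus strand), the small-conductance channel SK1, and Kcnj2 (chr11:110927478-110938135, plus strand) were each covered to 100% by H3K27me3 regions in all 4 lists. H3K27ac peaks within 1 kb of the 5′ end numbered 1 in each list for Kcnn1 and 1, 2, 2 and 1 for Kcnj2. Near the family as a whole, 39.4%, 35.1%, 49.7% and 41.8% of 66, 134, 147 and 134 H3K27ac peaks overlapped an H3K27me3 region by at least 1 base. Of all autosomal H3K27ac peaks, 15.7%, 17.8%, 34.1% and 21.1% did. In mixed tissue a pair of marks at 1 position can come from different cells, and the lists cannot tell these apart. H3K27me3 regions were also joined across gaps between windows, so a region can span positions without the mark.

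More genes gained than lost an H3K27ac peak in males, and this turned with the number of peaks used. In males 39 genes (42.4%) had a peak within 10 kb that overlapped no control peak and 8 (8.70%) had a control peak without a counterpart, beside 48.7% and 9.83% of all genes. In females 26 genes (28.3%) gained and 24 (26.1%) lost a peak, beside 29.6% and 32.6%. Counted as peaks summed over the genes, 90 were gained and 9 lost in males, and 39 were gained and 44 lost in females. With equal numbers of the widest peaks taken from each list the male counts became 13 gained and 17 lost, where all genes stood at 23.6% and 22.8%, and the excess of gains turned into an excess of losses. The female counts became 14 and 14, with 18.4% and 21.6% of all genes.

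For 4 genes (4.35%, beside 1.76% of all genes) no H3K27ac peak lay within 10 kb in control liver of either sex but at least 1 did in KO liver of both. They were Kcne1, the beta subunit of the Kcnq1 channel, Kcnj5, Kcnj8 and Kcnq5. This count was not repeated with equal numbers of the widest peaks, and the control male list, with 29359 peaks, was the shortest. Kcne1 had 2 peaks in males and 1 in females, all more than 10 kb downstream of its 5′ end, and remained fully covered by H3K27me3 in all 4 lists. Kcnj5 had 2 in each sex, of which 1 in females lay at the 5′ end, with the gene fully covered in both KO lists. For Kcnq5 the counts were 1 and 3, and 1 peak in females lay 0.963 kb inside the gene. In 3 of these genes, all except Kcnj8, H3K27me3 was thus still called at the 5′ end in KO liver of both sexes.

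H3K4me1 was not sparse at these genes. A peak within 10 kb was present for 68 genes (73.9%, 64.1 to 81.8%) in control male, 66 (71.7%, 61.8 to 79.9%) in control female, 80 (87.0%, 78.6 to 92.4%) in KO male and 72 (78.3%, 68.8 to 85.5%) in KO female liver. All genes stood at 75.7%, 73%, 77% and 72.8%. Only 9 genes (9.78%) had no H3K4me1 peak within 10 kb in any list, compared with 20.7% of all genes. At the 5′ end 29 genes (31.5%) had a peak in all 4 lists, close to the 29.1% of all genes, and this contrasts with the 6.52% and 45% for H3K27ac.

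In KO liver more potassium channel genes gained than lost an H3K4me1 peak. In males 52 genes (56.5%) gained and 33 (35.9%) lost a peak within 10 kb, beside 45.6% and 46.4% of all genes. In females 43 (46.7%) gained and 33 (35.9%) lost one, beside 40.7% and 47.3%. With equal numbers of the widest peaks the counts were 52 and 23 in males and 43 and 30 in females, in the same direction, where all genes stood at 41.2% and 40.4% in males and 42.3% and 44.7% in females. For the KO female list the number of livers is uncertain, as stated above.

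Much of this H3K4me1 overlapped H3K27me3 regions. Of the 239, 200, 271 and 205 H3K4me1 peaks near potassium channel genes in the 4 lists, 60.3%, 61.5%, 69.0% and 61.5% overlapped a region of the same group by at least 1 base. For all autosomal H3K4me1 peaks the shares were 28.0%, 25.1%, 40.3% and 27.3%. Among genes whose 5′ end lay inside a region, an H3K4me1 peak within 1 kb of it was found at 41 of 83 (49.4%) in control male and 58 of 82 (70.7%) in KO male liver, where all genes had 47.9% and 55.6%. In females the counts were 36 of 79 (45.6%) and 41 of 79 (51.9%), where all genes had 43.6% and 41.8%. Peaks at the 5′ end in both KO lists and neither control list were found for Kcna2, Kcnj12, Kcnj3, Kcnj5 and Kcnk4 (5.43% of the family and 1.45% of all genes), names taken after their values were seen. At 8 genes (8.70% of the family and 3.47% of all genes) a 5′ peak was found in the KO male list alone, among them Kcna1 and Kcna6 of the Shaker cluster and Kcnv1. Each of the 5 genes named before them had its 5′ end inside an H3K27me3 region in all 4 lists.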

How the data were processed

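H3K27me3, H3K27ac and H3K4me1 ChIP-seq of mouse liver was analysed from 12 deposited lists. The authors merged reads across the livers of each group before aligning to mm9 (Bowtie2, version 2.3.2). SICER, version 1.1 with 400 bp windows joined across gaps, gave the H3K27me3 regions, and MACS2, version 2.1.1, gave the peaks of the other marks. The deposited columns hold positions and no score, count or other signal, and the depth is not given in the sources used here.

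Gene spans came from GENCODE M1 on NCBIM37, 1 record a symbol (the longest, which concerns Kcnb2 and Kcnh8). Coverage is the percentage of the span inside regions. A gene was called covered from 50% and changed from 25 percentage points. Peaks were assigned within 10 kb of the span, or within 1 kb of the 5′ end. Gained and lost peaks share no base with the other list. Python 3.11.15, NumPy 2.4.6, SciPy 1.17.1 and matplotlib 3.10.9 were used, and the interval functions were tested on simulated data. Without replicates no test was made. Counts are set beside all 21281 autosomal genes, with Wilson 95% intervals that cover counting error only.

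The members and lists were chosen with earlier results of these data known. Genes were named by rule: Kcnq3, the 6 largest falls and rises in coverage per sex among the 83 genes of at least 5 kb, genes with H3K27ac at the 5′ end in all 4 lists, genes with H3K27ac in KO liver only in both sexes, the 5 longest fully covered genes, up to 5 genes without a region and the 5 largest control sex differences. Some genes that the rule names are not reported here. Other names are exceptions, family members or neighbours chosen after their values were seen. Alternatives changed the coverage and change limits, the gene window, the peak distance, the overlap rule and the number of regions or peaks used.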

Additional observations from a re-analysis of the deposited data

Results flagged for a closer look

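Kcnj8 is singled out because its H3K27me3 coverage moved in opposite directions in the 2 sexes. From control to KO liver it changed by 64.5 percentage points in males and by -97.8 percentage points in females. The difference was not tested, since each list pools the livers of a group. The gene spans 6.4 kb, and regions of 18.4, 31.2 and 29.2 kb overlapped it in control males, control females and KO males, whereas none did in KO females.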

How the results depend on the processing

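Of 112 alternative counts, 85 stayed within 1.5 times the reported one. All counts of genes at least 50% covered did. With the widest 50% of regions, falls in females were 10 and rises in males 10. With a limit of 50 points, falls in males were 2 and rises in females 3, and with a window of 3 kb on either side of the 5′ end rises in females were 4. Within 1 kb of the 5′ end, H3K27ac peaks were found at 6, 14, 12 and 14 genes in the 4 lists, and H3K4me1 peaks at 43, 39 and 45 in control males, control females and KO females. Within 50 kb, H3K27ac was near 53 and 60 genes in control males and females. Within 50 kb, gained and lost H3K27ac peaks were near 64 and 13 genes in males and 42 and 43 in females, and lost H3K4me1 peaks near 55 and 59. Already within 10 kb, 48.7% of all genes had a gained H3K27ac peak in males and 9.83% a lost one. Within the span, H3K27ac was at 17 genes in control males, lost H3K27ac at 5 in males and lost H3K4me1 at 19 in females. With equal numbers of the widest peaks, H3K27ac was gained and lost near 13 and 17 genes in males and 14 and 14 in females. Apart from equal numbers of the widest peaks, no share of all genes is given for these alternatives. Their counts therefore show the effect of the setting and set nothing apart about the family. The cause of the shifts beyond the changed distance or number of peaks was not tested. No paired analysis was possible because livers were pooled before calling, and for that reason no liver was left out in turn. Depth is unknown, so an uncalled position may hold signal below the callers' limits. Regions are broad, and neighbouring genes share them.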
